A study of Mus musculus with 36 samples.

Results

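Several ribosomal protein genes (RPGs) of the mouse have a second, paralogous gene, named after the canonical gene with an added l, l1 or al. The genes described here were chosen by symbol, as the rows of the count table whose GENCODE symbol is Rpl22l1, Rpl22, Rpl39l, Rpl39, Rps27l, Rps27, Rpl36al, Rpl36a, Rpl7l1 or Rpl3l. They are 10 of the 55492 rows. Of these 10 genes, 8 passed the filter on low counts (a mean above 5 counts over all libraries) and were among the 20355 rows tested, and Rpl39l and Rpl3l did not pass it. Rpl7 and Rpl3, the canonical genes of Rpl7l1 and Rpl3l, are not on the list and are given as the denominators of their pairs. Rpl22l1 was already known to have the smallest p of all RPGs for DEX against control when the list was drawn up, so its differences from control, and those of its ratio to Rpl22, are given as a description with no test.

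The cytosolic ribosome holds one copy of nearly every ribosomal protein, and canonical RPGs are transcribed in step in most cells. A paralog can code for a protein that takes the place of the canonical one in some ribosomes or serves another purpose. Rpl22 and Rpl22l1 code for alternative forms of the large subunit protein eL22, and Rpl22 protein is known to restrain Rpl22l1 expression in mouse tissue. Rpl39l, the paralog of Rpl39, is known from male germ cells, and Rpl3l, the paralog of Rpl3, from striated muscle. Rps27l is known as a p53 target gene, Rpl36al codes for a protein nearly identical to that of Rpl36a, and Rpl7l1 resembles yeast factors that assemble the large subunit more than it resembles a structural protein.

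The cells were dissociated cortical cells of C57 mouse embryos at embryonic day 18 (C57EDCX, a commercial preparation), which were grown for 10 days and then treated for 72 h. Control cultures received fresh medium, DEX cultures 1 µM dexamethasone, an agonist of the glucocorticoid receptor, and DEX + RU-486 cultures 1 µM DEX with 1 µM RU-486 (mifepristone), an antagonist of that receptor. RNAseq libraries numbered 36, or 12 in each of the 3 groups, and they were split evenly over 2 batches named by the labels, so that a group had 6 in each; they are called here by their numbers from 1 to 36. The study's methods call the libraries of a group experimental replicates, and neither they nor the labels say whether these came from separate cultures, so p-values measure the spread between these libraries, which may be technical.

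Depth ranged from 12.1 to 82.4 M counts per library. The RNA integrity number (RIN), a score of how intact the RNA of a library was, comes from the labels. It was under 3 in 6 libraries of batch 2, 2 in each group, and at least 7.4 in the other 12, so that integrity can be compared there with the groups balanced. In batch 1 it was 7.8 to 9.2 in control, 3.9 to 7.8 in DEX and 5.6 to 7.9 in DEX + RU-486, and depth went with the group as well (24.2 to 82.4 M counts in control, 12.1 to 22.3 M in DEX), so that treatment, integrity and depth cannot be told apart in that batch. Only 2 libraries of batch 1 had a RIN under 6, DEX library 12 (3.9) and DEX + RU-486 library 18 (5.6). All 10 neuron markers checked (Tubb3, Map2, Rbfox3, Snap25, Syt1, Stmn2, Slc17a7, Slc17a6, Gad1 and Gad2) passed the filter, as did all 7 markers of astrocytes and all 7 of the oligodendrocyte lineage, while of 6 microglia markers 3 passed it and P2ry12, Tmem119 and C1qa had a mean of 5 counts or less. In bulk libraries such as these, fewer cells of a type and less RNA per cell cannot be told apart.

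The coding sequences show how far the members of a pair can be separated by reads. They were read 5′ to 3′ from the GENCODE M21 transcripts of GRCm38, aligned within each pair and written in lower case, with capitals for every base that differs from, or has no partner in, the other gene of the pair. Rpl22l1 (chr3:28805436-28807424, plus strand) and Rpl22 (chr4:152325742-152334071, plus strand) are shown first because they differ throughout, with 70.2% of aligned positions identical, 110 mismatches and 18 unpaired bases over coding sequences of 369 and 387 nt, of which positions 1 to 300 are printed.
Rpl22l1: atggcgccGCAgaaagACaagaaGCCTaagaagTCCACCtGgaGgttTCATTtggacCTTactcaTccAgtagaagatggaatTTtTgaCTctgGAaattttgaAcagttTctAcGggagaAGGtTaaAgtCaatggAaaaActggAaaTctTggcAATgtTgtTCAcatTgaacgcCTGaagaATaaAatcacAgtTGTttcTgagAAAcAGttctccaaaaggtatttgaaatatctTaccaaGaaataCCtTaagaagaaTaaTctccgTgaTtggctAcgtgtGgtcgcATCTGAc
Rpl22: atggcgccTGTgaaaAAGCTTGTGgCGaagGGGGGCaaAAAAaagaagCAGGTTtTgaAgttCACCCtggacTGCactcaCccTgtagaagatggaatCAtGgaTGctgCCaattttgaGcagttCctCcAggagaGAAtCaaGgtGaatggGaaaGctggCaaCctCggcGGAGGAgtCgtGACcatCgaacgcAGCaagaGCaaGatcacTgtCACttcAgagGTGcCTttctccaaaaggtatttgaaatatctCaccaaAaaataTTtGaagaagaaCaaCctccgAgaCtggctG

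Rps27l (chr9:66946086-66949516, plus strand) and Rps27 (chr3:90212522-90213651, minus strand) have coding sequences of equal length, 255 nt, which differ at 61 positions with no gap (76.1% identical). The differences are spread so evenly that the longest run shared by their transcripts was 11 nt.
Rps27l: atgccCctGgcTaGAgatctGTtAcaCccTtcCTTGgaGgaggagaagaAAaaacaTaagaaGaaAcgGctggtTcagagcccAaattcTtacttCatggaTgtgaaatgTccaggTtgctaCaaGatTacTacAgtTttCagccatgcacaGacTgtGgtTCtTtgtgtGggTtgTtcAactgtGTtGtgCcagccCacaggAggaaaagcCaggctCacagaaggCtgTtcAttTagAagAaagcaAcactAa
Rps27: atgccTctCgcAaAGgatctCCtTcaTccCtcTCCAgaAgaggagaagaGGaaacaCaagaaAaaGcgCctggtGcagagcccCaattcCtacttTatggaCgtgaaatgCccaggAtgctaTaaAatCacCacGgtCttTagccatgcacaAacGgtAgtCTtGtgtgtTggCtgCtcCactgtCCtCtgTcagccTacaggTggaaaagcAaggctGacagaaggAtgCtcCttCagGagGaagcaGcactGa

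Rpl39l (chr16:10170226-10174911, plus strand) and Rpl39 (chrX:37082520-37085402, minus strand) are shown because the near absence of Rpl39l reads, described further on, depends on whether the pair can be told apart. Their coding sequences of 156 nt differ at 23 positions (85.3% identical), and the longest run shared by their transcripts was 38 nt.
Rpl39l: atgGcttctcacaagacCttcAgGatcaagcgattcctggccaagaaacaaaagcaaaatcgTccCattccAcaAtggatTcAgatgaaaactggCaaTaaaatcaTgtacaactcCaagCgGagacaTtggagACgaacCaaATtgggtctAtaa
Rpl39: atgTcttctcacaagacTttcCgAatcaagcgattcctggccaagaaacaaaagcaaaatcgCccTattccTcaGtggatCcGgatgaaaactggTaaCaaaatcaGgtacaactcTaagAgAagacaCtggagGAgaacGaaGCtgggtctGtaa

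Rpl36al (chr12:69182731-69184083, minus strand) and Rpl36a (chrX:134585654-134588062, plus strand) are the most alike of the 6 pairs, with 39 mismatches over 321 nt (87.9% identical) and a longest shared run of 24 nt. Their levels were also the closest to each other.

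The other 2 pairs are less alike or have a paralog with hardly any reads. Rpl7l1 (chr17:46773907-46782672, minus strand) and Rpl7 (chr1:16101295-16104662, minus strand) had coding sequences of 741 and 813 nt with 59.9% identical positions. Rpl3l (chr17:24727820-24736143, plus strand) and Rpl3 (chr15:80077791-80091868, minus strand) had coding sequences of 1224 and 1212 nt with 74.4% identical positions. In none of the 6 pairs did the 2 transcripts share a run longer than 38 nt, which is shorter than the stretches of 50 nt used next.

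Reads of these genes can be shared with processed copies elsewhere in the genome rather than with the paralog. Of the 50 nt stretches of each gene's transcript, the share that also occurred in a transcript of another annotated gene was 98.6% for Rps27, 85.5% for Rpl36a, 65.6% for Rpl22l1, 63.3% for Rpl36al, 24.5% for Rpl22, 22.4% for Rps27l, 16.5% for Rpl39, 12.2% for Rpl7l1, and 0 for Rpl39l and Rpl3l. The copy that shared most with Rps27 was the retrogene Rps27rt, which held 1347 counts over all libraries, 2.96% of those on Rps27. For Rpl22l1 it was the pseudogene Gm15421, with 684 counts, 9.24% of those on Rpl22l1. Rpl36al overlaps Gm49383 on the same strand over 332 exonic nt, and Gm49383 held 438 counts, 1.24% of those on Rpl36al. How reads on these stretches were split depends on the authors' alignment, so the levels of Rps27, Rpl36a, Rpl22l1 and Rpl36al are the least certain of the members. The denominators Rpl3 (85.6%) and Rpl7 (53.3%) share much of their sequence with copies too. With stretches of 100 nt the shares were 98.4% for Rps27, 83.6% for Rpl36a, 59.0% for Rpl36al, 50.8% for Rpl22l1, 2.23% for Rpl7l1, 1.75% for Rpl39, and 0 for Rpl22, Rps27l, Rpl39l and Rpl3l, and the read length is not given in the sources used here. On the opposite strand, Gm33051 shares 159 exonic nt with Rpl22l1 and held 0 counts.

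Levels are given as CPM, counts scaled to the library's total and its TMM factor, and between genes as CPM per kb of annotated exon. That length covers every annotated exon of a gene and exceeds that of the transcripts compared above. It was 2911 nt for Rpl22 and 816 nt for Rps27l, whose transcripts were 474 and 499 nt. The order of genes per kb, and how far neighbours lie apart in it, depend on this choice of length. The canonical genes were the more abundant in every pair. Per kb, Rpl22 stood at 46.5 ± 16.8 CPM (SD, n = 36) and Rpl22l1 at 3.96 ± 0.924. Rps27 stood at 51.4 ± 27.8 CPM per kb and Rps27l at 3.60 ± 0.751. The order of the tested members from high to low was Rpl36a (65.0 ± 36.5), Rps27, Rpl22, Rpl39 (33.6 ± 17.4), Rpl36al (29.5 ± 11.5), Rpl7l1 (7.19 ± 0.971), Rpl22l1 and Rps27l. Neighbours from Rpl36a to Rpl36al in this order lay within 1 SD of each other, as did Rpl22l1 and Rps27l, while Rpl7l1 stood apart from its neighbours on both sides by more than their SDs. The canonical genes and Rpl36al varied by a factor of 3 or more between the lowest and the highest library, and Rpl22l1, Rps27l and Rpl7l1 by less than 3. Rps27l rested on few reads, 20 to 330 counts per library, and Rpl22l1 on 52 to 609.

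**Figure D1:**
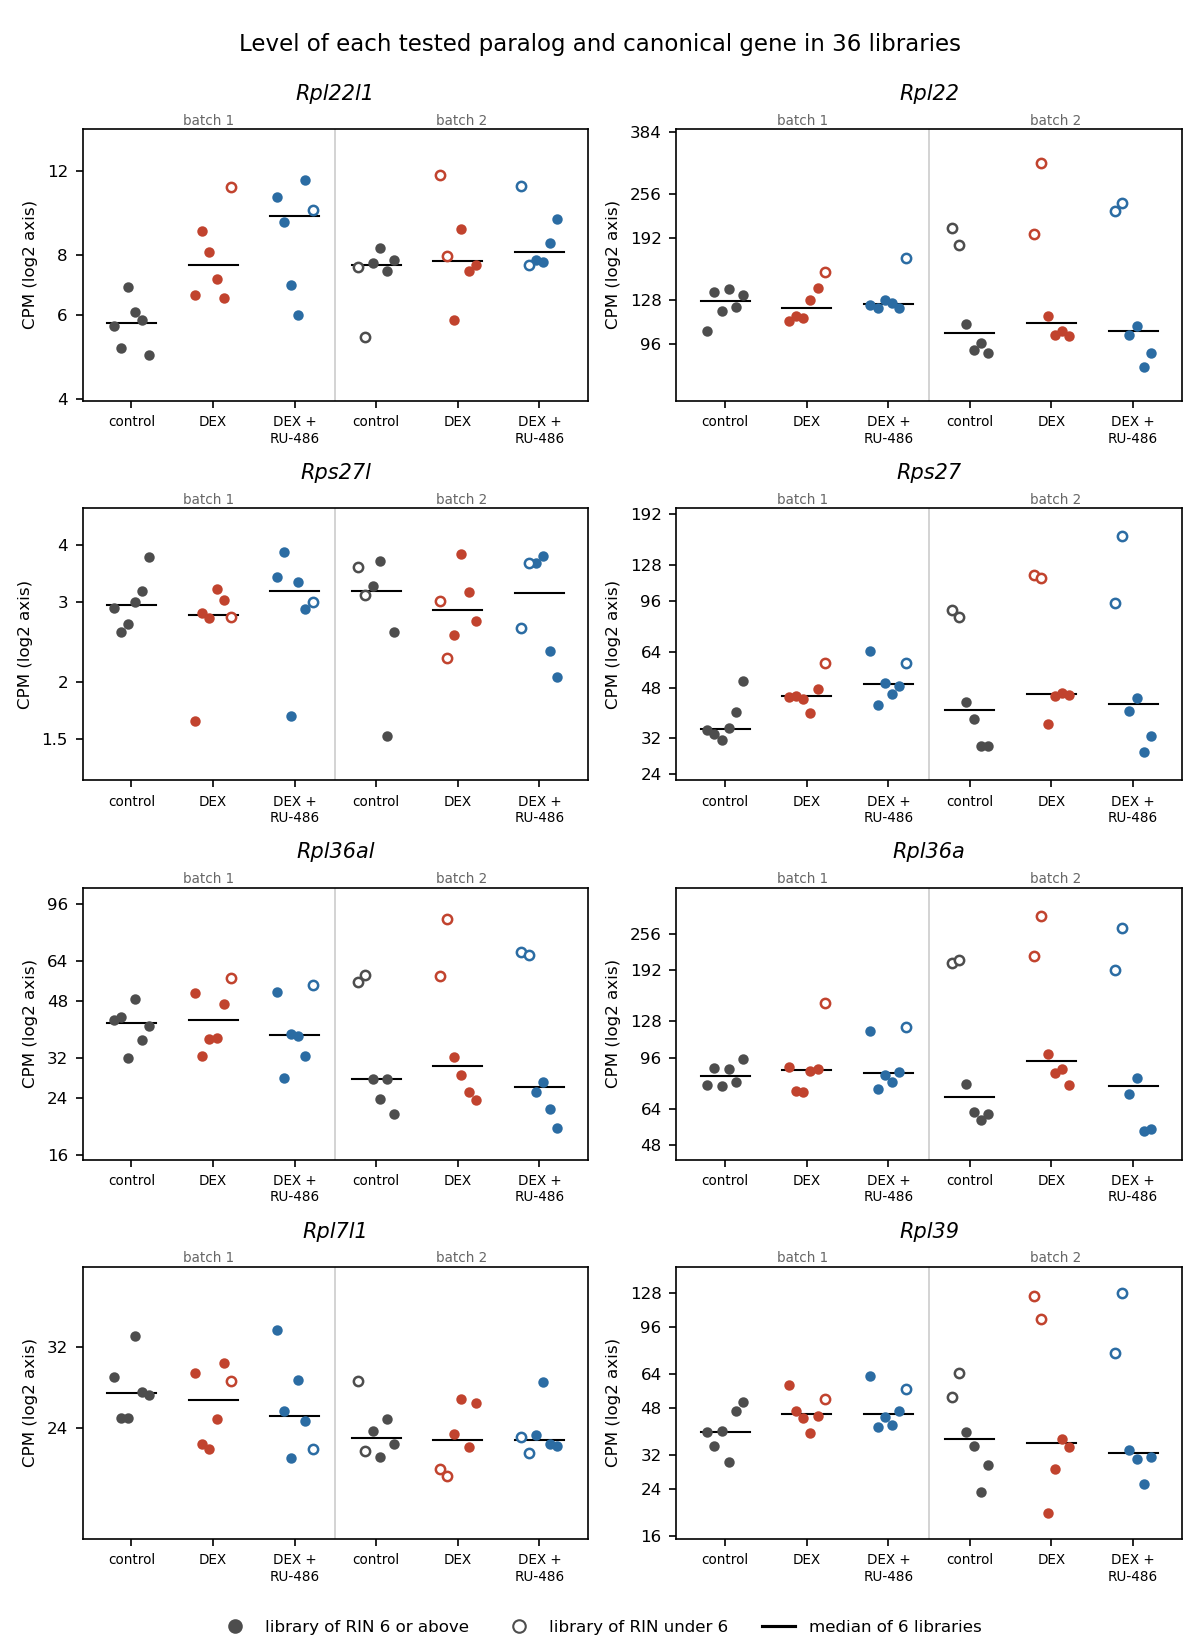
Each panel plots 1 gene's level in CPM (log2 axis) in the 36 libraries, by group and batch, with open symbols for libraries of RIN under 6 and lines at the medians of 6 libraries. In batch 2 the libraries of RIN under 3 lie above the others for Rpl22 (183 to 314 CPM against 83.0 to 116), Rpl39, Rps27, Rpl36al and Rpl36a, and overlap them for Rpl22l1, Rps27l and Rpl7l1.

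The treatments were compared to ask whether glucocorticoid receptor activation changed any pair. None of the 7 members tested passed at an adjusted p under 0.05 for DEX against control (edgeR, quasi-likelihood test, p adjusted by Benjamini-Hochberg over all 20355 genes), against 0.0246% of all genes tested. That share moved with the setting, from 5 genes here to 235 higher and 215 lower with DESeq2 (0 members) and to 725 higher and 892 lower without control library 20 (0 members). Their log2 fold changes ran from -0.08 to 0.38 with a median of 0.17, where the median of all tested genes was -0.0066, and 0 of the 7 had an unadjusted p under 0.05. For DEX + RU-486 against control 0 of 7 passed as well (0% of all genes, smallest adjusted p of the members 0.534, 0 at an unadjusted p under 0.05, and 0 with DESeq2), with log2 fold changes from -0.05 to 0.41. Of all genes, 47 were called higher and 51 lower with DESeq2 there, and 141 and 279 without control library 20 (0 members). For DEX + RU-486 against DEX, in which Rpl22l1 was also tested, 0 of 8 passed (0% of all genes, 0 at an unadjusted p under 0.05, and 0 with DESeq2), and no log2 fold change was larger than 0.13 in size. The first 2 comparisons share the control libraries. Within batch 1, where 19% of all genes passed for DEX and 15.4% for DEX + RU-486, 0 of 7 members passed for DEX, and 1 of 7, Rps27, for DEX + RU-486. Within batch 2, 0 of 7 passed in either comparison (0% of all genes). Among the 28 libraries of RIN 6 or above, 0 of 7 passed in either comparison, where 19.7% and 8.86% of all genes did. The treatment effects were not shown to differ between the batches for any of the 7 members (smallest adjusted p = 0.846 for DEX and 0.924 for DEX + RU-486, edgeR interaction test), where 0.172% and 0.0835% of all genes passed.

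**Figure D2:**
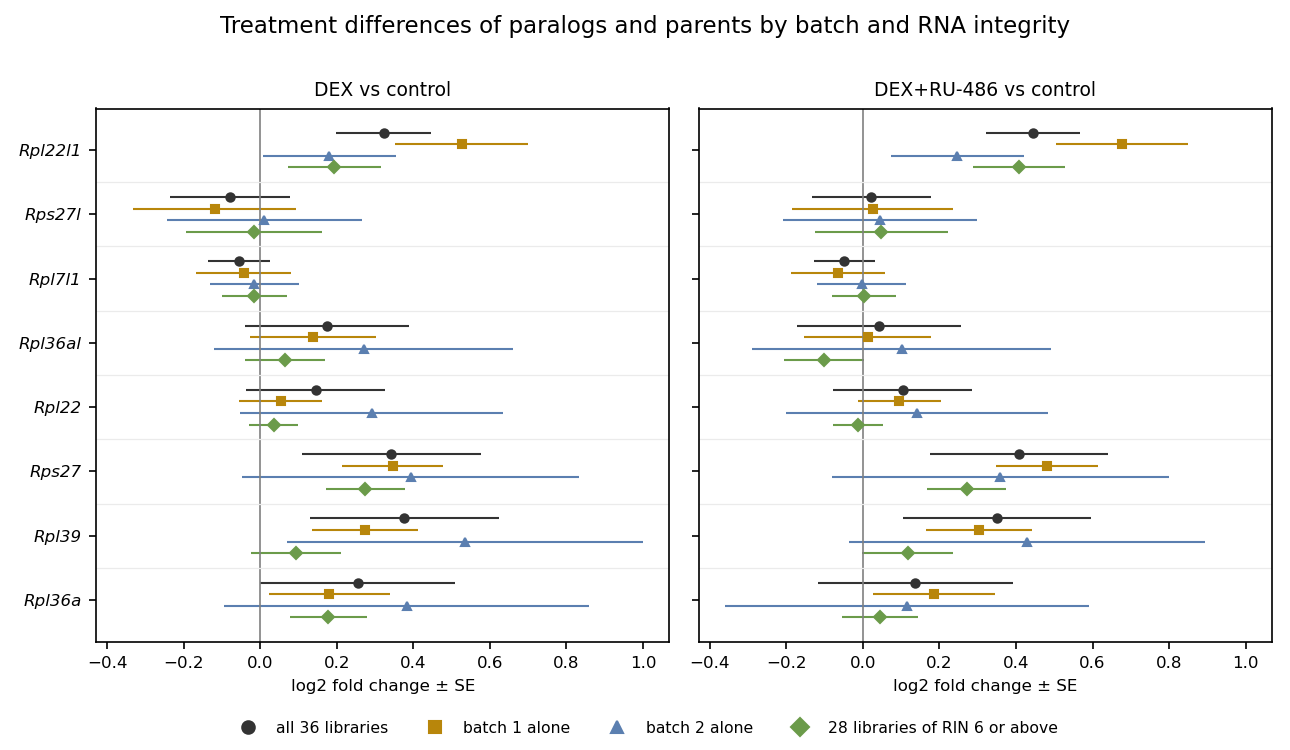
Each panel plots 1 treatment comparison, with the log2 fold change ± SE of the 8 tested members on the horizontal axis, for all libraries, batch 1 alone, batch 2 alone and libraries of RIN 6 or above. With all libraries DEX against control runs from -0.08 for Rps27l to 0.38 for Rpl39, and the error bars of batch 2 are wider than those of batch 1 for the canonical genes.

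RNA integrity divided the members: 5 differed far more by it than by treatment, and 3 were not shown to differ by it. In batch 2, the libraries of RIN under 3 against those of RIN 7.4 or above showed a change in 5 of the 8 members, where 55.2% of all genes passed: levels were higher for 5 (Rpl22, Rpl39, Rps27, Rpl36al and Rpl36a) and lower for 0, where 28.4% of all genes were higher and 26.8% lower (edgeR's quasi-likelihood test, group as a covariate). The 5 are the 4 canonical genes on the list and Rpl36al, with log2 fold changes from 1.17 to 1.66. The other 3 members, the paralogs Rpl22l1, Rps27l and Rpl7l1, lay between -0.10 and 0.09 and did not pass. Of the 75 other canonical RPGs tested, all 75 were higher in the libraries of low RIN, by 0.94 to 2.26 with a median of 1.65, against a median of 0.04 over all tested genes. None of the 75 lay below any of these 3 paralogs, whose values were above those of 52.2% (Rpl22l1), 50.2% (Rps27l) and 44.1% (Rpl7l1) of all tested genes. Exonic length, counted over all annotated exons of a gene, went with this difference too. Protein-coding genes with up to 1000 exonic nt had a median of 0.80 (n = 329). Those above 4000 nt had a median of -0.08 (n = 8506). The exonic lengths of the 5 members that were higher ran from 1043 nt (Rps27) to 2911 nt (Rpl22), and those of the other 3 were 816 nt (Rps27l), 1989 nt (Rpl22l1) and 3495 nt (Rpl7l1). The transcripts compared above were shorter, from 345 nt (Rps27) to 612 nt (Rpl39) for the 5. For the other 3 they were 499 nt (Rps27l), 552 nt (Rpl22l1) and 1310 nt (Rpl7l1). The part of length in the result was not tested. The summed level of the 10 neuron markers was 5719 to 9924 CPM in the libraries of low RIN and 2566 to 2993 in the intact ones, a difference that was Map2 for the most part. Without Map2 the sums were 1445 to 1813 and 1391 to 1796 CPM, and of the 10 markers 2 (Map2 and Stmn2) were higher without overlap, 4 (Syt1, Slc17a6, Gad1 and Gad2) lower and 4 overlapped. Of the 7 markers of dividing progenitors 4 were higher and 0 lower without overlap, with a summed level of 150 to 262 against 24.5 to 104 CPM. The lists of endothelial and mural cells (6.32 to 27.9 against 1.60 to 3.66 CPM) and striated muscle (31.2 to 58.9 against 10.5 to 24.4 CPM) were higher without overlap too, those of the oligodendrocyte lineage (437 to 2157 against 130 to 1004 CPM), astrocytes, microglia and fibroblasts overlapped, and in each of these 6 lists 0 markers were lower without overlap. The part of these cell types in the result was not tested.

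The batches differed for some of these genes too, in the other direction. Among the 28 libraries of RIN 6 or above, 5 of the 8 members were lower in batch 2 than in batch 1 and 0 were higher, where 48.1% of all genes passed, 24.7% lower and 23.4% higher (edgeR's quasi-likelihood test, group as a covariate). In genes these were 5023 and 4763, and 3830 and 5845 with upper-quartile factors. They were Rpl36al (-0.66), Rpl39 (-0.55), Rpl22 (-0.33), Rpl36a (-0.25) and Rpl7l1 (-0.17). Of the 75 other canonical RPGs, 65 were lower and 0 higher, between -0.78 and -0.04 (median -0.34). Rpl22l1 (0.12) and Rps27l (-0.02) did not pass and lay above all 75. The calls of Rpl36a (-0.17) and Rpl7l1 (-0.08) were lost with upper-quartile factors, as they were with at least 10 counts required in every library, and that of Rpl7l1 (-0.14) was lost with DESeq2 and with RIN as a covariate (adjusted p = 0.0505, edgeR) as well. With no filter on low counts Rps27 was called lower (-0.22) and Rpl7l1 was not. With control libraries alone, 3 members were lower (Rpl22, Rpl36a and Rpl36al) and 1, Rpl22l1, higher (0.45), where 41.8% of all genes passed, 20.5% lower and 21.2% higher, and the calls of Rpl39 (-0.33) and Rpl7l1 (-0.24) were lost.

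**Figure D3:**
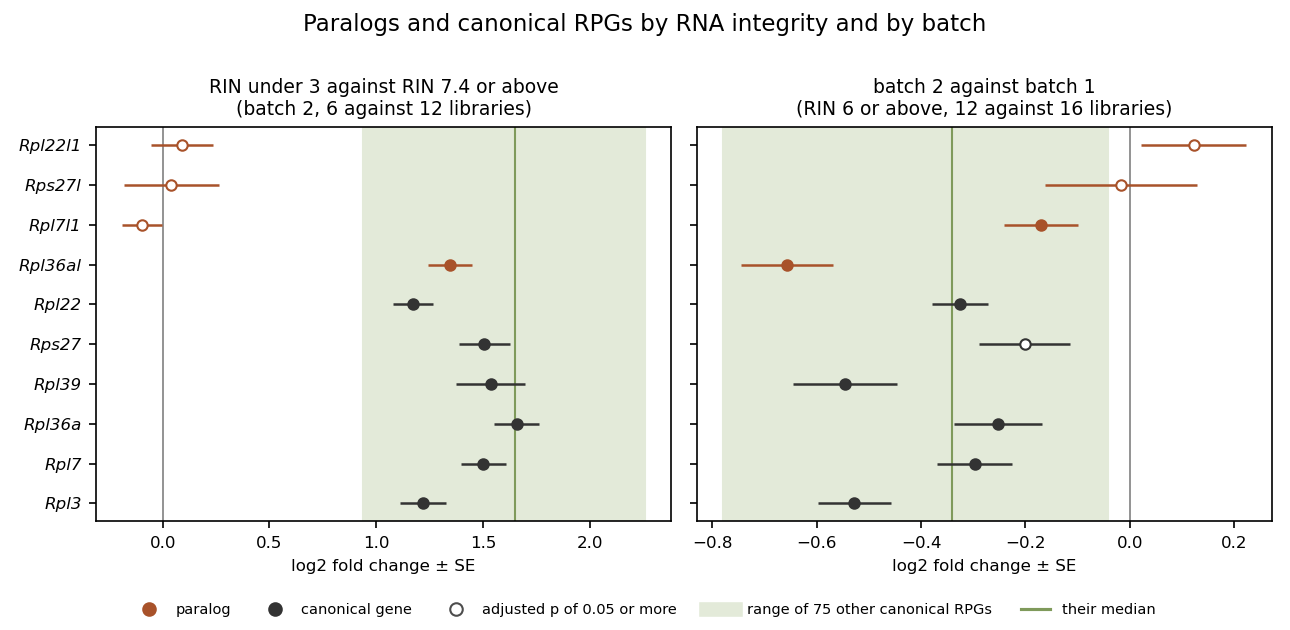
The panels plot the log2 fold change ± SE of each paralog and canonical gene, with open symbols where the adjusted p is 0.05 or more and with the range and median of the 75 other canonical RPGs as a band and a line, for RIN under 3 against 7.4 or above in batch 2 and for batch 2 against batch 1 among intact libraries. Rpl22l1, Rps27l and Rpl7l1 lie near 0 in the comparison by RIN (-0.10 to 0.09), outside the range of the canonical RPGs (0.94 to 2.26).

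For the pair of Rpl22l1 and Rpl22, the paralog stood higher in both treated groups than in control in batch 1, but not in DEX among the intact libraries of batch 2. In batch 1, Rpl22l1 lay between 4.94 and 6.84 CPM in control (median 5.76), between 6.51 and 11.1 in DEX (median 7.63) and between 5.99 and 11.5 in DEX + RU-486 (median 9.65). The ranges of control and each treated group overlapped only at their ends. In batch 2, control lay between 5.38 and 8.26 CPM (median 7.62), DEX between 5.84 and 11.7 (median 7.78) and DEX + RU-486 between 7.63 and 11.2 (median 8.13). There control and DEX overlapped over most of the range of control, while the lower control libraries lay below every DEX + RU-486 library. Among the 4 intact libraries of each group there, control lay between 7.41 and 8.26 CPM (mean 7.79 ± 0.357, SD), DEX between 5.84 and 9.07 (7.48 ± 1.32) and DEX + RU-486 between 7.73 and 9.53 (8.38 ± 0.831), so that the DEX mean was below that of control. The log2 fold change over all libraries was 0.32 (SE 0.124) for DEX and 0.44 (SE 0.124) for DEX + RU-486. It was 0.53 for DEX and 0.68 for DEX + RU-486 in batch 1, and 0.18 and 0.25 in batch 2, given like the others with no test. The treatment effects on Rpl22l1 were not shown to differ between the batches. Between DEX + RU-486 and DEX the difference was 0.12 (SE 0.124, adjusted p = 0.9998), so that adding the antagonist was not shown to change Rpl22l1.

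Rpl22 itself, the canonical eL22 gene, stood in batch 1 at 105 to 138 CPM in control (median 127), 112 to 154 in DEX (median 122) and 122 to 169 in DEX + RU-486 (median 125). The highest value of each treated group belonged to its library of RIN under 6, and the 3 groups otherwise overlapped. On the log2 scale it differed from control by 0.14 ± 0.182 (SE; adjusted p = 0.750) for DEX and 0.10 (SE 0.182, adjusted p = 0.879) for DEX + RU-486, by edgeR. With RIN as a covariate both turned negative (-0.10 and -0.08), neither of them passing. In batch 2 Rpl22 was 183 to 314 CPM in the libraries of low RIN and 83.0 to 116 in the intact ones, with no overlap, a fitted log2 difference of 1.17 with an SE of 0.0926 (adjusted p = 1.33e-09). Rpl22l1 was 5.38 to 11.7 CPM in the former and 5.84 to 9.53 in the latter, which lay within that range, a fitted log2 difference of 0.09 with an SE of 0.146 (adjusted p = 0.621).

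The ratio of the pair therefore differed with RNA integrity. Rpl22l1 counts were 2.54% to 5.96% of Rpl22 counts in the 6 libraries of low RIN in batch 2 (mean 3.87% ± 1.31) and 5.07% to 10.5% in the 12 intact ones (8.04% ± 1.51). Only 1 library of low RIN, DEX library 25, reached the intact range. The log2 ratio was lower by a mean of -1.09 (p = 0.000593, two-sided exact permutation test within groups). By treatment, in batch 1, the share was 3.75% to 5.73% in control (median 4.59%), 4.73% to 7.78% in DEX (median 6.53%) and 4.76% to 9.44% in DEX + RU-486 (median 6.81%). The log2 ratio differed from control by 0.46 and 0.56 in batch 1 and by -0.05 and 0.17 in batch 2, for DEX and DEX + RU-486. Among libraries of RIN 6 or above over both batches the differences were 0.11 and 0.36. In the intact libraries of batch 2 the mean log2 ratio was -3.64 in control, -3.84 in DEX and -3.51 in DEX + RU-486. In batch 1 the summed level of the 7 oligodendrocyte lineage markers was 59.2 to 272 CPM in control, 458 to 2081 in DEX, without overlap, and 211 to 896 in DEX + RU-486, which overlapped control. That of the 7 dividing progenitor markers was 14.3 to 47.0, 49.97 to 233 and 27.3 to 214 CPM. Their part in the result was not tested.

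For the pair of Rps27l and Rps27, of the small subunit, the paralog lay between 1.52 and 3.85 CPM in the 36 libraries. Rps27l stood in control at 1.52 to 3.76 CPM (median 3.05), in DEX at 1.65 to 3.82 (median 2.81) and in DEX + RU-486 at 1.69 to 3.85 (median 3.16), so that the 3 groups covered nearly the same range. On the log2 scale it differed from control by -0.08 ± 0.156 (SE; adjusted p = 0.856) for DEX and 0.02 (SE 0.155, adjusted p = 0.974) for DEX + RU-486, by edgeR. In the libraries of low RIN of batch 2 it was 2.26 to 3.65 CPM, within the 1.52 to 3.82 of the intact ones, a fitted log2 difference of 0.04 with an SE of 0.224 (adjusted p = 0.890).

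Rps27 stood in batch 1 at 31.7 to 50.7 CPM in control (median 34.4), 39.1 to 58.3 in DEX (median 44.8) and 41.8 to 64.3 in DEX + RU-486 (median 49.2). The treated groups had higher medians, and most of their libraries lay within the range of control. Its log2 fold change in batch 1 was 0.48 for DEX + RU-486 (SE 0.132, adjusted p = 0.0183) and 0.35 for DEX (adjusted p = 0.0704, edgeR). Over all libraries it was 0.41 (SE 0.233, adjusted p = 0.534) and 0.34 (SE 0.233, adjusted p = 0.475), and among libraries of RIN 6 or above 0.27 in both comparisons (adjusted p = 0.0988 and 0.0599), so the call was made in batch 1 alone, where RIN and depth went with the group. In batch 2, Rps27 was 84.6 to 161 CPM at low RIN and 28.6 to 46.0 in the intact libraries, without overlap, a fitted log2 difference of 1.51 with an SE of 0.119 (adjusted p = 1.28e-09). Rps27rt, with which most of its transcript is shared, stood at 1.28 in the same comparison.

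The share of Rps27l counts in those of Rps27 was 2.00% to 4.05% in the libraries of low RIN in batch 2 and 5.10% to 9.88% in the intact ones, with no overlap. The difference in the log2 ratio was -1.42 (p = 0.000296, the smallest that the 3375 arrangements within groups allow, two-sided exact permutation test). By treatment over both batches, the log2 ratio differed from control by -0.40 in DEX (p = 0.0895) and by -0.32 in DEX + RU-486 (p = 0.191, two-sided exact permutation tests within batch). Without DEX library 28 the former was -0.48 with p = 0.0466. In batch 1 the share was 7.44% to 8.68% in control, 3.78% to 8.25% in DEX and 3.44% to 9.24% in DEX + RU-486, so that the control libraries lay close together and the treated ones reached lower. The differences there were -0.48 (exact p = 0.00866) and -0.49 (exact p = 0.0346). In batch 2 they were -0.32 (exact p = 0.470) and -0.15 (exact p = 0.732), and among libraries of RIN 6 or above -0.26 (exact p = 0.0823) and -0.19 (exact p = 0.283). Among the intact libraries of batch 2 alone the mean log2 ratio was -3.72 in control, -3.82 in DEX and -3.64 in DEX + RU-486. The DEX + RU-486 mean was there above that of control.

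For the pair of Rpl36al and Rpl36a both members moved in the same direction by RIN and by batch, though by different amounts. Rpl36al stood in control at 21.5 to 58.0 CPM (median 38.3), in DEX at 23.8 to 86.2 (median 36.8) and in DEX + RU-486 at 19.4 to 68.0 (median 34.95), and Rpl36a at 58.5 to 207 (median 78.2), 72.9 to 295 (median 87.6) and 53.5 to 269 (median 82.6). The groups overlapped over most of their ranges for both genes. For DEX the log2 fold changes were 0.17 (SE 0.215, adjusted p = 0.743) for Rpl36al and 0.25 (SE 0.255, adjusted p = 0.666) for Rpl36a, by edgeR, and for DEX + RU-486 they were 0.04 and 0.14. With RIN as a covariate they turned to -0.12 and -0.07 for DEX and to -0.18 and -0.12 for DEX + RU-486, none of them passing. In batch 2, Rpl36al was 55.1 to 86.2 CPM at low RIN and 19.4 to 32.1 in intact libraries, a fitted log2 difference of 1.35 with an SE of 0.102 (adjusted p = 6.73e-10). Rpl36a was 192 to 295 CPM and 53.5 to 98.9, a fitted log2 difference of 1.66 with an SE of 0.105 (adjusted p = 5.27e-11). Neither gene's RIN classes overlapped. Of the 4 tested paralogs, Rpl36al was the one called by RIN. Between batches it was called lower, as was Rpl7l1, and differed by -0.66 (SE 0.0883, adjusted p = 5.86e-07) and Rpl36a by -0.25 (SE 0.0842, adjusted p = 0.0142).

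Rpl36al counts were 24.7% to 57.0% of those of Rpl36a over all libraries, the highest share of any pair. The share was 24.7% to 35.4% at low RIN and 28.7% to 47.0% in intact libraries of batch 2, which overlapped, and the log2 ratio differed by -0.31 (p = 0.00237, two-sided exact permutation test). In batch 1 among libraries of RIN 6 or above it was 37.1% to 57.0%, above the median of the intact libraries of batch 2 (34.9%). By treatment the differences in the log2 ratio were -0.11 for DEX (p = 0.226) and -0.10 for DEX + RU-486 (p = 0.266), by exact permutation tests within batch. With the mean of the other canonical RPGs in place of Rpl36a as the denominator, the latter was -0.19 (exact p = 0.0462). With Rpl36a as the denominator, DEX differed from control by -0.02 in batch 1 (exact p = 0.864) and by -0.20 in batch 2 (exact p = 0.162). For DEX + RU-486 the differences were -0.18 in batch 1 (exact p = 0.0931) and -0.03 in batch 2 (exact p = 0.857).

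For the pair of Rpl7l1 and Rpl7, the paralog was the steadiest of all members, between 20.2 and 34.04 CPM in the 36 libraries. It stood in control at 21.6 to 33.3 CPM (median 24.8), in DEX at 20.2 to 30.2 (median 24.1) and in DEX + RU-486 at 21.6 to 34.04 (median 23.3), which overlapped almost fully. The log2 fold changes were -0.06 (SE 0.0804, adjusted p = 0.787) and -0.05 (SE 0.0803, adjusted p = 0.872), by edgeR. At low RIN in batch 2 it was 20.2 to 28.4 CPM and in intact libraries 21.6 to 28.3, a fitted log2 difference of -0.10 with an SE of 0.0928 (adjusted p = 0.395). Rpl7, a large subunit gene, was 459 to 743 CPM at low RIN and 142 to 231 in intact libraries, a fitted log2 difference of 1.50 with an SE of 0.104 (adjusted p = 2.13e-10). The share of Rpl7l1 counts in those of Rpl7 was 2.95% to 5.68% at low RIN and 10.3% to 15.96% in intact libraries, without overlap, a difference in the log2 ratio of -1.60 (p = 0.000296, the smallest that the arrangements allow, two-sided exact permutation test).

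By treatment the ratio of Rpl7l1 to Rpl7 differed in batch 1, where control libraries lay at 11.6% to 16.1%, DEX libraries at 8.69% to 10.7% and DEX + RU-486 libraries at 6.21% to 12.8%. Control and DEX did not overlap. The log2 ratio there was lower by -0.42 in DEX (p = 0.00216, two-sided exact permutation test, the smallest that 6 against 6 libraries allow) and by -0.41 in DEX + RU-486 (exact p = 0.0216). In batch 2 the differences were -0.13 (exact p = 0.719) and -0.02 (exact p = 0.968), and over libraries of RIN 6 or above -0.14 (exact p = 0.148) and -0.03 (exact p = 0.764). Over both batches with all libraries they were -0.28 (exact p = 0.250) and -0.22 (exact p = 0.393). Among the intact libraries of batch 2 alone the mean log2 ratio was -3.13 in control, -3.03 in DEX and -2.91 in DEX + RU-486. The means of both treated groups were there above that of control. Across the 4 pairs, 10 such ratio tests by treatment were made over all libraries and again under each of 6 alternatives, apart from leaving out single libraries, and 4 by RIN, and none of their p-values is adjusted. None of the 4 ratios was shown to differ between DEX + RU-486 and DEX, with differences from 0.0046 to 0.16 in size (exact p from 0.453 to 0.957).

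**Figure D4:**
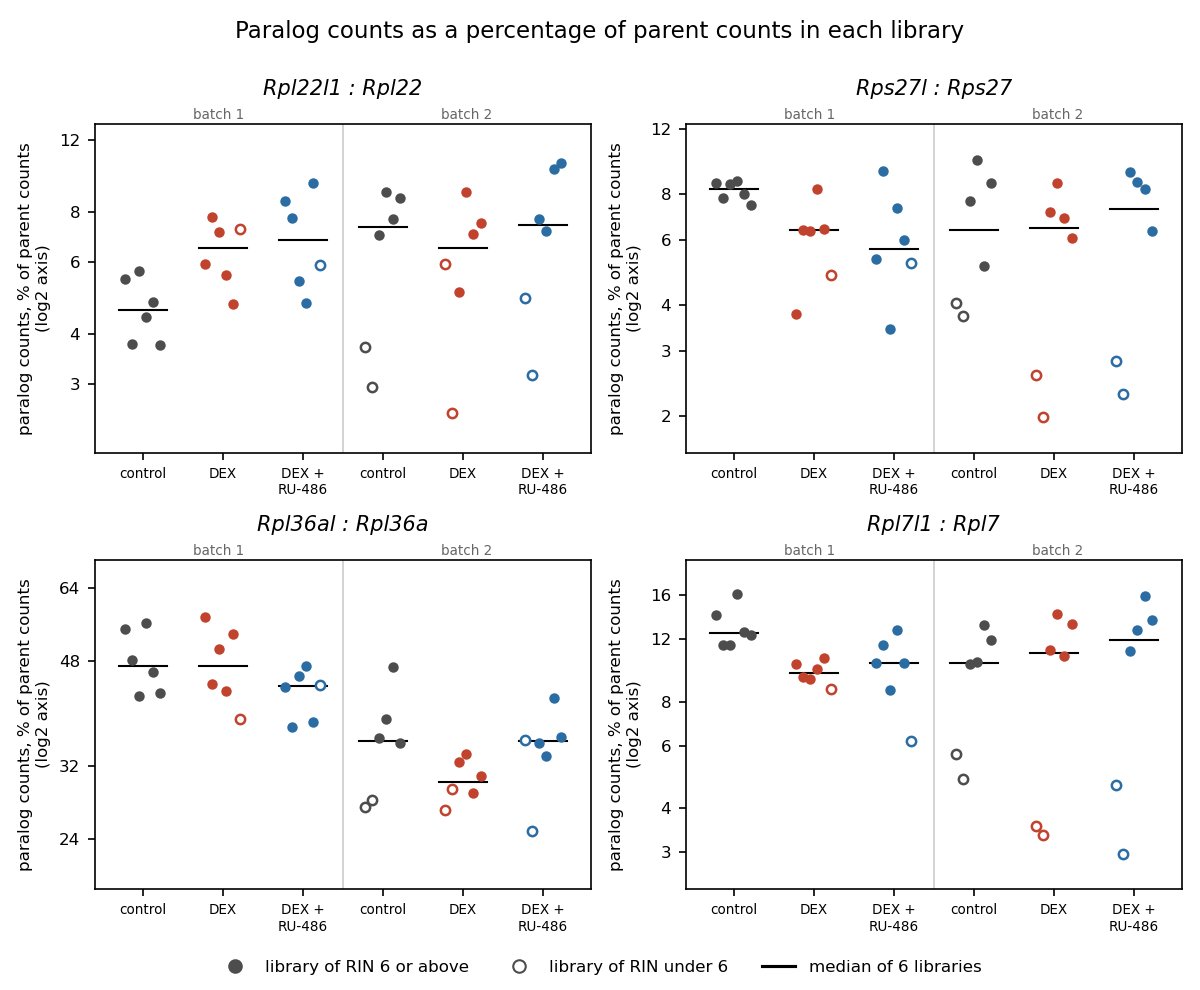
Each panel plots, for 1 pair, the paralog's counts as a percentage of the parent's counts (log2 axis) in each of the 36 libraries, by group and batch, with open symbols for libraries of RIN under 6 and lines at the medians. For Rps27l and Rpl7l1 the libraries of RIN under 3 in batch 2 lie wholly below the intact ones (2.00% to 4.05% against 5.10% to 9.88%, and 2.95% to 5.68% against 10.3% to 15.96%).

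Within batch 1, where RIN was spread continuously, the ratios were set against it over 18 libraries (4 relations, permutation p-values not adjusted). The log2 ratio of Rpl7l1 to Rpl7 rose with RIN (Pearson's r = 0.698, p = 0.00211; Spearman's rho = 0.781, p = 0.00022), and so did that of Rps27l to Rps27 (r = 0.647, p = 0.00384; rho = 0.761, p = 0.00034). Since control had the highest RIN in this batch, the group means of both measures were also removed. The relations were then r = 0.459 (permutation p = 0.0656) and rho = 0.317 (p = 0.199) for Rpl7l1, and r = 0.443 (permutation p = 0.0705) and rho = 0.725 (p = 0.00115) for Rps27l. Leaving out the 2 libraries with the RIN most distant from its median, r was 0.516 (permutation p = 0.0425) and 0.455 (permutation p = 0.0765). For Rpl36al the relation was r = 0.238 (permutation p = 0.348) and rho = 0.0806 (p = 0.748) as measured and r = 0.180 (p = 0.492) and rho = -0.0795 (p = 0.755) within groups, and without the 2 farthest libraries the latter r turned to -0.208. For Rpl22l1 it was r = -0.520 and rho = -0.602 as measured, given without a test because its difference by treatment is part of it, and r = -0.186 (permutation p = 0.474) and rho = -0.160 (p = 0.524) within groups. All p-values of these relations came from permuting libraries over the whole batch rather than inside each group. Those with the group means removed therefore take no account of that removal. In batch 2 RIN fell into separate clusters, so no correlation was taken there.

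**Figure D5:**
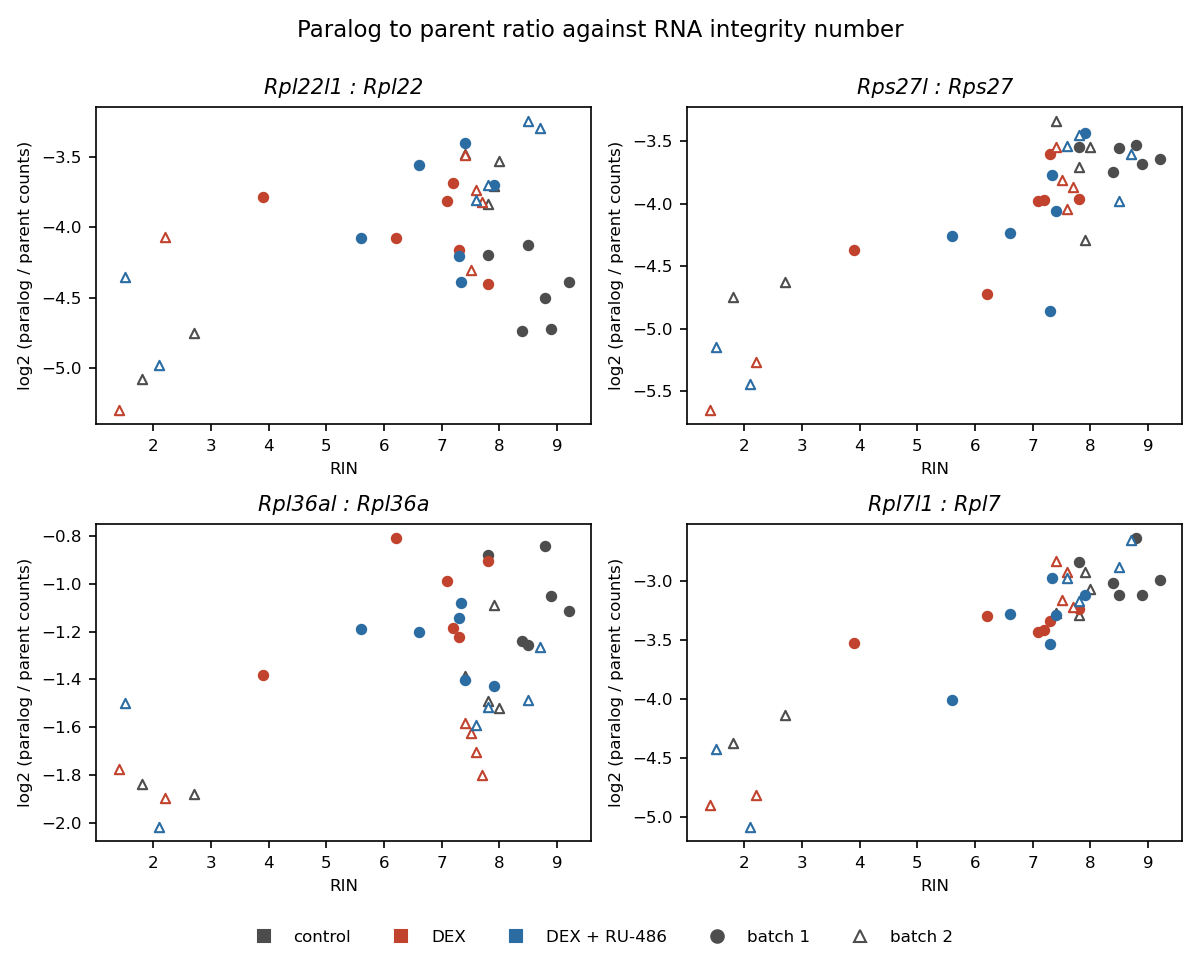
Each panel plots, for 1 pair, the log2 ratio of paralog to parent counts against RIN, with a colour for each group, filled circles for batch 1 and open triangles for batch 2. In batch 1 the ratio of Rpl7l1 to Rpl7 rises with RIN (r = 0.698 over 18 libraries), with the control libraries at the upper right.

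Within groups the paralogs also differed in how they went with their parents from library to library. Over the 28 libraries of RIN 6 or above, with the batch-by-group means removed, log2 CPM of Rpl36al and Rpl36a rose together (r = 0.743, p = 0.00015; rho = 0.710, p = 0.00027; permutation within batch and group, 4 relations, not adjusted), while Rpl22l1 went against Rpl22 (r = -0.383, p = 0.0106; rho = -0.487, p = 0.00508, by the same permutation). Without the 2 farthest libraries these were r = 0.654 and r = -0.401. For Rps27l and Rps27, r was 0.459 (permutation p = 0.0331) and rho 0.557 (p = 0.0128), and r 0.417 without the 2 farthest libraries. For Rpl7l1 and Rpl7, r was 0.453 (permutation p = 0.0495) and rho 0.299 (p = 0.154), and r fell to 0.278 without the 2 farthest libraries, so that this relation rested on them.

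Among the 14370 genes with a mean of at least 1 CPM, those whose residual levels were most like a paralog's were ranked over the same 28 libraries. For Rpl36al they were Serf2 (r = 0.922), the small subunit gene Rps6 (r = 0.884) and Edf1 (r = 0.876), and Rpl36a ranked 83. For Rpl7l1 they included the proteasome subunit gene Psmc3 (r = 0.824) and Pdhx of the pyruvate dehydrogenase complex (r = 0.777), and Rpl7 ranked 925. For Rpl22l1 they were Scml2 (r = 0.811), Tdrd6 (r = 0.799) and 9530059O14Rik (r = 0.798), and Rpl22 ranked 13794, near the end. For Rps27l, with its few reads, the highest values were lower, 1500002C15Rik (r = 0.679), Gm30371 (r = 0.673) and 4732471J01Rik (r = 0.663), and Rps27 ranked 267. These are descriptions over libraries that share batch and depth.

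The other 2 paralogs, those named for male germ cells and for striated muscle, gave hardly any reads. Rpl39l had 3 counts in all 36 libraries, 1 in each of 3 libraries, against 42014 counts on Rpl39, a share of 0.00714% (95% exact binomial interval 0.00147% to 0.0209%). In DEX it had 0 counts against 10549 on Rpl39. A count of 0 allows up to 3 counts, which is between 0.0288 and 0.310 CPM depending on the library, so no change of Rpl39l was detectable at this depth. Rpl3l had 85 counts in 22 libraries, at most 12 in 1 library, against 355295 on Rpl3, a share of 0.0239% (95% exact binomial interval 0.0191% to 0.0296%). These were 44 counts in control, 14 in DEX and 27 in DEX + RU-486, or 0.0254%, 0.0162% and 0.0283% of the Rpl3 counts, with overlapping intervals. Intervals and floors cover counting error only. Of 10 markers of striated muscle, Ckm, Tnnt3, Des and Myl2 also had a mean of 5 counts or less, while the other 6 passed the filter, with Myh7 (median 5.94 CPM) and Ttn (5.76 CPM) the highest.

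Rpl39, the canonical gene beside Rpl39l, stood at 23.3 to 64.5 CPM in control (median 39.0), 19.6 to 125 in DEX (median 44.4) and 25.1 to 128 in DEX + RU-486 (median 42.9), which overlapped. Its log2 fold change was the highest of the tested members for DEX, 0.38 (SE 0.247, adjusted p = 0.457, edgeR), and 0.09 among libraries of RIN 6 or above, and it turned to -0.0240 with RIN as a covariate. At low RIN in batch 2 it was 52.5 to 128 CPM and in intact libraries 19.6 to 38.9, without overlap, a fitted log2 difference of 1.54 with an SE of 0.161 (adjusted p = 7.96e-08, edgeR). Rpl3 stood at 253 to 571 CPM in control, 267 to 795 in DEX and 194 to 741 in DEX + RU-486, and rose by 1.22 (SE 0.107, adjusted p = 6.14e-09, edgeR) at low RIN.

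The members were set beside 4 lists of genes. Of the 76 other canonical RPGs listed, 75 were tested. For DEX against control 0 of the 75 passed, all 75 log2 fold changes were positive with a median of 0.30, and those with the smallest p included Rpl36 (0.47), Rpl23a (0.57) and Rps27a (0.30), none passing. In batch 1 alone 15 of the 75 were higher and 0 lower, where 8.99% of all genes were higher and 9.99% lower. Among libraries of RIN 6 or above 11 were higher and 0 lower (median 0.16), where 7.83% and 11.9% of all genes were, and in batch 2 alone 0 passed. For DEX + RU-486 against control 0 passed over all libraries (median 0.25), 13 were higher and 0 lower in batch 1 alone (15.4% of all genes passed there), and 0 passed in batch 2 alone or among libraries of RIN 6 or above. The canonical genes Rpl22, Rpl39, Rps27 and Rpl36a, at 0.14 to 0.38 for DEX, lay within the range of the 75 (0.02 to 0.57), and Rpl7l1 and Rps27l lay below it.

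Rps27l is a p53 target, so 24 tested genes of that kind were counted. For DEX against control 0 of the 24 passed over all libraries (10 at an unadjusted p under 0.05, where 3446 of all 20355 genes were, edgeR). Their median was 0.23, and DESeq2 called 3 higher and 0 lower (235 and 215 of all genes). The members with the smallest p were Dcxr, a carbonyl reductase (2.68, adjusted p = 0.0533), Btg2, an antiproliferative gene (0.96, adjusted p = 0.0827), Bbc3, which codes for the apoptosis protein Puma (0.71, adjusted p = 0.0899), and Tigar, a regulator of glycolysis (-0.76, adjusted p = 0.0926), by edgeR. Trp53, the gene of p53 itself, stood at 0.085 and Mdm4, its inhibitor, at 0.02. In batch 1 alone 7 of the 24 were higher and 1 lower, where 8.99% and 9.99% of all genes were, and among libraries of RIN 6 or above 7 were higher and 2 lower, where 7.83% and 11.9% of all genes were. In batch 2 alone 0 passed. The DEX difference in batch 2 minus that in batch 1 was -1.54 for Btg2 (adjusted p = 0.0948) and -1.17 for Bbc3 (adjusted p = 0.125), by edgeR, and among libraries of RIN 6 or above 3 of the 24 passed for a lower value in batch 2, where 1.07% of all genes did. Rps27l was called in none of these. At low RIN 9 of the 24 were higher and 2 lower, with a median of 0.28, where 28.4% and 26.8% of all genes were.

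For Rpl7l1, 46 factors of large subunit assembly and of ribosomal RNA synthesis were tested. For DEX against control 0 of the 46 passed (edgeR, 8 at an unadjusted p under 0.05; 0 passed with DESeq2), with a median of 0.04. The smallest p belonged to Noc4l, which is known from the small subunit although it was on the list (-0.30), Dkc1, which codes for the pseudouridine synthase dyskerin (-0.27), Nop53 (0.44) and Polr1b, a subunit of RNA polymerase I (-0.26). For DEX in batch 1 alone 6 of the 46 were higher and 3 lower, where 8.99% and 9.99% of all genes were. Among libraries of RIN 6 or above 5 were higher and 4 lower, where 7.83% and 11.9% of all genes were. In batch 2 alone 0 passed. At low RIN in batch 2, 13 of the 46 were higher and 14 lower with a median of 0.03 (19 and 11 with upper-quartile factors), near the 28.4% and 26.8% of all genes, and Rpl7l1 lay at -0.10. Among them Nop53 was higher (0.96) and Dkc1 (-0.47) and Polr1b (-0.43) lower.

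Of the 8 genes named as pseudogenes of a member, 4 were tested. Rpl36a-ps1 is annotated as protein-coding, and the others as processed pseudogenes. For DEX against control 0 of the 4 passed over all libraries, with Rpl22-ps1 at 0.95 (adjusted p = 0.195) and Rpl36a-ps1 at 0.68 (adjusted p = 0.213) by edgeR, and Rpl36a-ps2 at 0.15. Among libraries of RIN 6 or above 2 of the 4 were higher and 0 lower (7.83% and 11.9% of all genes). At low RIN in batch 2 all 4 were higher (28.4% of all genes), by 1.54 to 1.74, beside 1.17 for Rpl22 and 1.66 for Rpl36a. Rpl22-ps1 shares 12% of the 50 nt stretches of Rpl22 and Rpl36a-ps2 62.7% of those of Rpl36a, and 0 and 57.8% of those of 100 nt. Gm15421, the copy of Rpl22l1, stood at 0.63 in the comparison by RIN.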

How the data were processed

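The authors deposited raw counts of reads per Ensembl gene in 36 libraries, made with HISAT2 2.1.0 and Subread 1.5.0-p2 on GRCm38, per the labels. The study's methods describe a standard alignment and a specialized one, to the genome with spliced RPG sequences added. The specialized one allowed no mismatches and dropped reads that mapped to several loci. These libraries were put through the pipeline so described, and which alignment the deposited counts hold is not given in the sources used here. The labels give a poly(A) library preparation and the study's methods a total RNA library, which was not settled here. Depth was 12.1 to 82.4 M counts per library, and 5 rows that name no gene (58 counts) were left out. GENCODE M21 gave symbols to 55227 of 55492 rows. Genes with a mean above 5 counts were tested with edgeR 4.0.16 (quasi-likelihood, TMM; R 4.3.3), with batch as a covariate for treatments and group for RIN and batch, and Benjamini-Hochberg adjustment over all 20355; DESeq2 1.42.0 was an alternative. SEs of fold changes were taken from edgeR's F statistic (|log2 fold change|/√F). Log2 ratios of a pair's counts were compared by two-sided exact permutation within batch or group (scipy 1.17.1). Sequences were aligned with Biopython 1.88. Scripts were tested on simulated data. The members and lists were chosen with earlier results of these data known. Beyond the members, named genes are those of smallest p in each list, their closest copies, and the 3 genes most like each paralog. Some items that these rules name are not reported here. Other scalings, filters, RIN as a covariate, single batches, libraries of RIN 6 or above and leaving out each library were tried.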

Additional observations from a re-analysis of the deposited data

Results flagged for a closer look

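In 6 of 72 groups of 6 libraries that were checked (the level of 1 of 8 members or the ratio of 1 of 4 pairs, in 1 group and batch), 1 library stood apart from the others by more than 0.625 of the group's range, which chance gives in about 1 of 20 groups. Rpl22 was high in DEX + RU-486 library 18 of batch 1, at 7.40 log2 CPM against 6.93 to 7.01 in the others, and the RIN of that library was 5.6. Rpl36a was high in DEX library 12 of batch 1, at 7.20 log2 CPM against 6.19 to 6.48, with a RIN of 3.9. Rpl22l1 was low in control library 20 of batch 2, at 2.44 log2 CPM against 2.89 to 3.05, with a RIN of 1.8. Rps27l was low in DEX library 7 of batch 1, at 0.75 log2 CPM against 1.48 to 1.69 (RIN 6.2), and in DEX + RU-486 library 15 of batch 1, at 0.78 log2 CPM against 1.54 to 1.95 (RIN 7.3). Rpl7l1 was high in DEX + RU-486 library 34 of batch 2, at 4.82 log2 CPM against 4.46 to 4.55, with a RIN of 7.6.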

How the results depend on the processing

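Of 393 values under alternatives other than leaving out a library, 346 were counted as the same. Of the rest 9 lost a call, 9 gained one, 26 turned direction and 3 counts moved by over 1.5 times. For tested values, the same means the same direction and side of the threshold. Untested values of Rpl22l1 counted as the same if they moved by less than the SD within groups, whatever their sign. Its ratio to Rpl22 for DEX, 0.20 over all libraries and -0.05 in batch 2 alone, was so counted. Its relation with RIN as measured always was. The cause of these changes was not tested. Over all genes, 3 were called higher and 2 lower for DEX, 235 and 215 with DESeq2, 187 and 268 with RIN as a covariate and 725 and 892 without control library 20. The count of members called for DEX + RU-486 against control was 1 in batch 1 alone, and that for the batches was 3, not 5, with upper-quartile factors and with at least 10 counts in every library. In batch 1 alone the ratio of Rps27l to Rps27 differed by -0.48 (DEX) and -0.49 (DEX + RU-486) and that of Rpl7l1 to Rpl7 by -0.42 and -0.41. With canonical RPGs as the denominator Rpl36al differed by -0.19 for DEX + RU-486 against control and by -0.0705 against DEX. Without the 2 libraries farthest in RIN, r within groups was 0.516 for Rpl7l1 to Rpl7 and -0.208 for Rpl36al to Rpl36a.

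With RIN as a covariate the DEX differences turned to -0.10 (Rpl22), -0.0692 (Rpl36a), -0.12 (Rpl36al) and -0.0240 (Rpl39), and those of DEX + RU-486 to -0.0758 (Rpl22), -0.12 (Rpl36a) and -0.18 (Rpl36al). Among libraries of RIN 6 or above the latter were -0.0128 (Rpl22), -0.10 (Rpl36al) and 0.0025 (Rpl7l1). Rpl7l1 turned to 0.0076 and 0.0093 (DEX and DEX + RU-486) with at least 10 counts, and with upper-quartile factors to 0.0020 (DEX + RU-486) and 0.0370 (low RIN). With no filter, which moves the median of all genes at low RIN from 0.04 to 0.84, Rpl22l1 was at -0.10 and Rps27l at -0.15 there. Rps27l was at 0.0103 for DEX in batch 2 alone, and between the batches at 0.0094 (DESeq2), 0.0705 (upper-quartile) and 0.0586 (at least 10 counts). Between DEX + RU-486 and DEX the ratio of Rps27l turned to -0.0062 (medians) and -0.0029 (batch 1), and that of Rpl36al to -0.16 (batch 1) and -0.0080 (RIN 6 or above).

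Leaving out 1 library at a time, 0 members were called in each treatment comparison and 5 at low RIN. The log2 fold change for DEX ran from -0.0081 to 0.24 for Rpl22, from 0.0249 to 0.27 for Rpl36al and from 0.0929 to 0.39 for Rpl36a. For DEX + RU-486 it ran from -0.0341 to 0.26 for Rpl36a, from -0.0662 to 0.13 for Rpl36al and from -0.0466 to 0.0782 for Rps27l. At low RIN it ran from -0.0296 to 0.19 for Rpl22l1 and from -0.0243 to 0.12 for Rps27l. Between DEX + RU-486 and DEX the ratio ran from -0.0253 to 0.0499 for Rpl36al, from -0.0674 to 0.21 for Rpl7l1 and from -0.0448 to 0.21 for Rps27l. The ratio of Rps27l to Rps27 for DEX ran from -0.48 (without DEX library 28, exact p = 0.0466) to -0.27. That of Rpl7l1 to Rpl7 ran from -0.36 to -0.15 for DEX and from -0.31 to -0.06 for DEX + RU-486. At low RIN the ratios ran from -1.30 to -0.89 (Rpl22l1), -1.48 to -1.36 (Rps27l), -0.40 to -0.23 (Rpl36al) and -1.71 to -1.49 (Rpl7l1).

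No paired analysis was made, because each of the 36 libraries has its own number and the sources used here name no pairs between groups. Whether the cultures were paired is not known. Rps27l, with 20 to 330 counts per library, has the fewest reads of the tested members.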

Other observations

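Among control libraries of RIN 6 or above, Rpl22l1 was higher in batch 2 than in batch 1 by 0.45 (adjusted p = 0.00989, edgeR), where Rpl22 was lower by a log2 fold change of -0.35 (adjusted p = 0.00649). Of all genes in that comparison 21.2% were higher and 20.5% lower.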
